A study of Mus musculus with 6 samples.

Results

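The TRiC/CCT chaperonin is the cytosolic folding machine that closes over newly made actin, tubulin and other proteins, and its 8 subunits are encoded by Tcp1, Cct2, Cct3, Cct4, Cct5, Cct6a, Cct7 and Cct8. These 8 genes were taken by name, and all 8 of them were among the 14099 genes tested, out of 39059 in the count files. They were described in satellite cells, which rebuild muscle after injury, sorted by flow cytometry from hind limbs and sequenced as total RNA depleted of ribosomal RNA. 3 libraries came from Lmna HOM mice, homozygous for the Lmna Δ8-11 allele, which lacks exons 8 to 11 of the gene for lamins A and C, and 3 from Lmna WT mice carrying no such allele. All mice were C57BL/6J and 19 days old (postnatal day 19), with no transgene or Cre named. Each condition had 3 mice, but no label links a given library to its own mouse, so a p-value here reflects scatter among libraries, some of which could be technical.

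Each TRiC/CCT complex is a stacked pair of rings, and every ring holds each of the 8 related subunits once. All of the subunits bind ATP, and closure of the built-in lid follows ATP hydrolysis. Prefoldin and phosducin-like proteins deliver or help to fold the clients, and the mitochondrial chaperonin encoded by Hspd1 and Hspe1 is the separate, bacterial-type machine of the mitochondrial matrix. In muscle the complex is known for folding the actins that build the sarcomere and the tubulins of the myoblast cytoskeleton.

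Lmna stood at 421 ± 40.0 CPM in Lmna HOM and 946 ± 108 CPM in Lmna WT libraries (CPM, read counts scaled to a common library size after TMM, SD, n = 3 each). Reads from undeleted exons are included, which limits this as a check of genotype. Gene reads per library ran from 6613636 to 9552751. Satellite cell markers were present in every library, and 6 of 10 fell with edgeR, with summed levels of 1271 to 1855 CPM in Lmna HOM and 2202 to 2244 CPM in Lmna WT. Pax7, which defines these cells, was at 23.1, 52.4 and 19.5 CPM in Lmna HOM and at 86.9, 66.3 and 74.9 CPM in Lmna WT replicates 1, 2 and 3. Markers of other cell types were also present, with pericyte and smooth muscle markers summing to 12253 to 13095 CPM in Lmna HOM and 11120 to 15866 CPM in Lmna WT; of these 8, 3 rose (Kcnj8, Abcc9 and Pdgfrb) and 1, Myh11, fell. Adipocyte markers summed to 574 to 1227 CPM in Lmna HOM and 296 to 428 CPM in Lmna WT, with 4 of 5 higher by edgeR. Of 8 Schwann and glial markers 3 rose and 3 fell, with sums of 3457 to 4675 CPM in Lmna HOM and 4318 to 5403 CPM in Lmna WT. Erythroid markers, of which 4 of 7 fell, summed to 217 to 885 CPM in Lmna HOM and 899 to 1599 CPM in Lmna WT. Fibro-adipogenic markers, of which 5 of 8 fell and 1 rose, summed to 1481 to 2330 CPM in Lmna HOM and 4572 to 4872 CPM in Lmna WT. Endothelial markers, of which 0 of 8 were called, summed to 443 to 719 CPM in Lmna HOM and 477 to 724 CPM in Lmna WT. Macrophage markers, of which 1 of 6 tested rose and 0 fell, summed to 35 to 52 CPM in Lmna HOM and 35 to 64 CPM in Lmna WT. Beside these counts, 11.5% of all tested genes were called lower by edgeR and 9.67% higher. In such bulk samples fewer cells of a type and less RNA per cell cannot be told apart, and the part of cell make-up in the values given here was not tested.

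The start sites of the subunit genes are shown first because they let the members be set beside the heat shock genes that come later. RefSeq on GRCm38.p6 gave promoter windows for 7 of the 8 members, all but Cct4, in 9 windows of 250 bases upstream of a start. The GC box GGGCGG was found on either strand in some window of all 7 of these members, though not in the other window of Cct5. Counted by window rather than by gene, the box occurs in 57.2% of the 13294 windows of genes tested here and in 32.7% of all 32817 windows. Cct2 has windows at 2 starts. Its stretch below has the box 45 bases before its start, and a box 16 bases before the other start is not shown. The following stretches of 30 bases each hold the GC box nearest to the start of the window used, in capitals.
Tcp1: cgttgaggcggaGGGCGGgacacgctagcc
Cct2: ccaactgaggtcCCGCCCcttctccagcga
Cct3: ttcttgcgtagaGGGCGGggctaatactgt
Cct5: cttagagcccGGGCGGcaatcaaagaaaag
Cct6a: aagccaatcagcGGGCGGcaggagggtcgc
Cct7: gcgcctcccggaacctgcggtGGGCGGctc
Cct8: tgcaggttgaagGGGCGGggcgaccggaag
They lie at chr17:12916211-12916240 on the plus strand for Tcp1, chr10:117063880-117063909 on the minus strand for Cct2, chr3:88297029-88297058 on the plus strand for Cct3, chr15:31602067-31602096 on the minus strand for Cct5, chr5:129787294-129787323 on the plus strand for Cct6a, chr6:85451475-85451504 on the plus strand for Cct7 and chr16:87495900-87495929 on the minus strand for Cct8.

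The motif on which heat shock factors bind was searched as GAANNTTC or TTCNNGAA on both strands, letters that can overlap each other when repeats adjoin. It occurs in 12.8% of all windows and in 9.92% of those of tested genes. Of the 7 members with a window, 2 held it in some window, Cct2 at an alternative start and Cct5. This count is by gene, while the shares are by window. Of 10 HSP70, HSP90, partner and mitochondrial chaperonin genes looked up, 7 had a window. Hspa8, Hsp90aa1 and Hsp90ab1 had no window, so no HSP90 gene is among the 7. Of these 7, 4 held the motif, among them Hspe1 and Hspd1, which share 1 stretch of promoter. Dnajb1, Hspa4 and Stip1 did not hold it. These stretches, again of 30 bases with the motif in capitals, are shown because the subunit and heat shock genes are set beside each other below.
Cct2: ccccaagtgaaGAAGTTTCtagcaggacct
Cct5: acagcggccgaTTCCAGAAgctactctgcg
Hspe1: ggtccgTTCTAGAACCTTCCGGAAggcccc
The stretch of Cct2 lies at chr10:117063399-117063428 on the minus strand, that of Cct5 at chr15:31601862-31601891 on the minus strand and that of Hspe1 at chr1:55088053-55088082 on the plus strand. The letters shared by Hspe1 and Hspd1 run through 3 overlapping matches, while Cct2 and Cct5 each hold 1 match, as do the stretches of Dnaja1 and Hsph1. A match describes the letters only.

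The comparison asked whether satellite cells lacking intact lamin A/C hold a different amount of TRiC/CCT RNA. Subunit transcripts were abundant in both genotypes and differed little between them. With edgeR's quasi-likelihood test 1 of the 8 members, Cct3, fell and 0 rose at an adjusted p under 0.05, where 11.5% of all tested genes were called lower, 9.67% higher and 21.1% in either direction. At an unadjusted p under 0.05 the count was 2 of 8, both lower, against 35.9% of all tested genes, or 18.9% counting only those that were lower. DESeq2 also called 1 member and voom with sample weights 0. Over all tested genes DESeq2 called fewer than edgeR, and voom called more. The shares of genes called that are given here and below are edgeR's, not those of DESeq2 or voom. Log2 fold changes ran from -0.38 to 0.05 with a median of -0.22, beside a median of -0.0038 over all tested genes. They were below 0 for 7 members, where 50.4% of all tested genes were below 0, and above 0 for 1, Tcp1. Lmna HOM values lay below all Lmna WT values for 4 of the 8, Cct2, Cct3, Cct6a and Cct8, where 20.6% of all tested genes did so, and above them for 0, where 20.2% did.

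**Figure D1:**
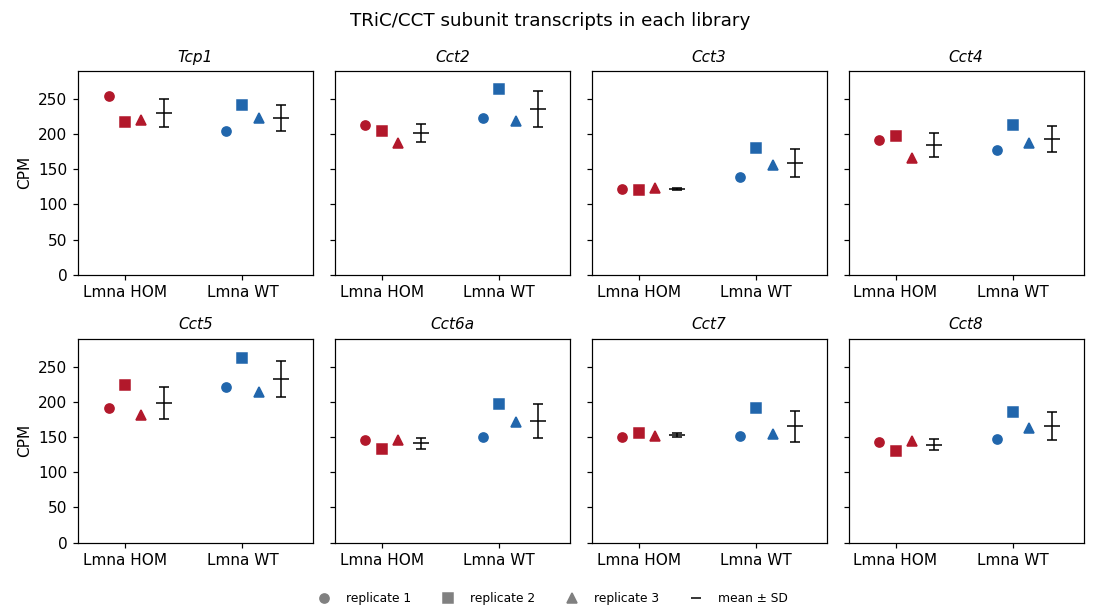
CPM of each subunit gene in the 3 Lmna HOM libraries (red, left) and the 3 Lmna WT libraries (blue, right), with the mean and SD as bars and the replicate number as the symbol. For Cct3 the Lmna HOM points lie between 121 and 123 CPM, below all Lmna WT points, and Lmna WT replicate 2 is the highest Lmna WT library in every panel.

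In yeast the subunits CCT3, CCT6 and CCT8 sit side by side in the ring and bind ATP weakly, and the mouse genes for them are described first. Cct3 (ENSMUSG00000001416, chromosome 3, positions 88297116 to 88321767, plus strand, GRCm38) encodes the gamma subunit. Cct3 stood at 122, 121 and 123 CPM in Lmna HOM replicates 1, 2 and 3, against 140, 180 and 156 CPM in Lmna WT replicates 1, 2 and 3. The Lmna HOM libraries were nearly alike and all lower, while Lmna WT libraries spread widely. Cct3 had a log2 fold change of -0.38 (SE 0.12, 95% interval -0.65 to -0.11), a fold of 0.769, with edgeR's adjusted p = 0.0479. That call was lost in each of the 6 fits that left out 1 library, with an adjusted p from 0.0535 to 0.135, and also with library totals only, voom with sample weights, the replicate block, joint omission of both replicates 2, or Y-linked reads as a covariate. Y-linked genes had 4498 reads in Lmna HOM replicate 2, against 3074 and 4831 reads in Lmna WT replicates 2 and 3, and at most 3 reads in the other libraries, so this covariate is unevenly spread over the genotypes.

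Cct3 lies 158379 bases from Lmna on the same chromosome. A pseudogene, Cct3-ps1, matches 82.9% of the Cct3 transcript at 90% identity or more, so the level of Cct3 is uncertain where reads fit both.

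Cct6a (ENSMUSG00000029447, chromosome 5, positions 129786998 to 129846371, plus strand) encodes the zeta subunit. Cct6a was at 145, 133 and 145 CPM in Lmna HOM and at 150, 197 and 171 CPM in Lmna WT replicates 1, 2 and 3. The highest Lmna HOM libraries fell short of the lowest Lmna WT library by a few CPM. The log2 fold change of Cct6a was -0.29 (SE 0.13, interval -0.58 to -0.011), with an unadjusted p of 0.0431 and edgeR's adjusted p = 0.126. Exons of Cct6a share 452 bases with Psph on the other strand, which matters because it is not known whether counting used strand. A snoRNA gene on the same strand, Snora15, shares 102 bases with Cct6a exons. The annotation used here classes Cct6a as a processed transcript rather than protein coding.

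Cct8 (ENSMUSG00000025613, chromosome 16, positions 87483326 to 87495873, minus strand) encodes the theta subunit. Cct8 was at 143, 130 and 144 CPM in Lmna HOM and at 148, 186 and 163 CPM in Lmna WT replicates 1, 2 and 3. The groups again stood apart by a few CPM. For Cct8 the log2 fold change was -0.25 (SE 0.12, interval -0.52 to 0.017), and edgeR's adjusted p = 0.163. Its exons share 192 bases with Usp16 on the other strand.

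Of the other 5 members, Cct2 (ENSMUSG00000034024, chromosome 10, positions 117051001 to 117063814, minus strand) encodes the beta subunit. Cct2 was at 213, 204 and 187 CPM in Lmna HOM and at 222, 265 and 219 CPM in Lmna WT replicates 1, 2 and 3. Each Lmna HOM library was below each Lmna WT library, though by less than the range within either genotype. Cct2 had a log2 fold change of -0.22 (SE 0.12, interval -0.50 to 0.05), and edgeR's adjusted p = 0.222.

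Cct5 (ENSMUSG00000022234, chromosome 15, positions 31590800 to 31601804, minus strand) encodes the epsilon subunit, which in humans is mutated in a hereditary sensory neuropathy. Cct5 was at 191, 225 and 181 CPM in Lmna HOM and at 221, 262 and 214 CPM in Lmna WT replicates 1, 2 and 3. The groups overlapped, because Lmna HOM replicate 2 lay above Lmna WT replicates 1 and 3. Its log2 fold change was -0.22 (SE 0.13, interval -0.52 to 0.07), and edgeR's adjusted p = 0.257.

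Cct7 (ENSMUSG00000030007, chromosome 6, positions 85451514 to 85468475, plus strand) encodes the eta subunit. Cct7 was at 150, 156 and 151 CPM in Lmna HOM and at 151, 191 and 155 CPM in Lmna WT replicates 1, 2 and 3. The groups overlapped, and 5 libraries lay within a few CPM of each other with Lmna WT replicate 2 above them. The log2 fold change was -0.12 (SE 0.12, interval -0.39 to 0.15), or -0.0039 without Lmna WT replicate 2. Exons of Cct7 share 214 bases with Pradc1 on the other strand, and a pseudogene, Gm5380, matches 23.3% of its transcript.

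Cct4 (ENSMUSG00000007739, chromosome 11, positions 22990519 to 23003780, plus strand) encodes the delta subunit, which contacts actin in the folding chamber. Cct4 was at 191, 197 and 165 CPM in Lmna HOM and at 177, 213 and 187 CPM in Lmna WT replicates 1, 2 and 3. The groups were interleaved. Cct4 had a log2 fold change of -0.06 (SE 0.12, interval -0.34 to 0.22), and its sign turned without Lmna HOM replicate 3 (0.015) or Lmna WT replicate 2 (0.019).

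Tcp1 (ENSMUSG00000068039, chromosome 17, positions 12915701 to 12925067, plus strand), which encodes the alpha subunit, was at 254, 218 and 220 CPM in Lmna HOM and at 204, 241 and 222 CPM in Lmna WT replicates 1, 2 and 3. Lmna HOM replicate 1 was the highest library and the groups overlapped. Its log2 fold change was 0.05 (SE 0.12, interval -0.22 to 0.32), and its sign turned without Lmna HOM replicate 1 (-0.016) or Lmna WT replicate 1 (-0.012). Exons of Tcp1 share 141 bases with Mrpl18 and 571 with Acat3, both on the other strand. A snoRNA gene on the same strand, Gm26130, shares 138 bases with them. Acat2 and Acat3 together match 23.5% of the Tcp1 transcript at 90% identity or more. All 8 intervals lay within -1 and 1 on the log2 scale, so a change of 2-fold or more was outside each member's interval, while smaller changes remain possible.

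**Figure D2:**
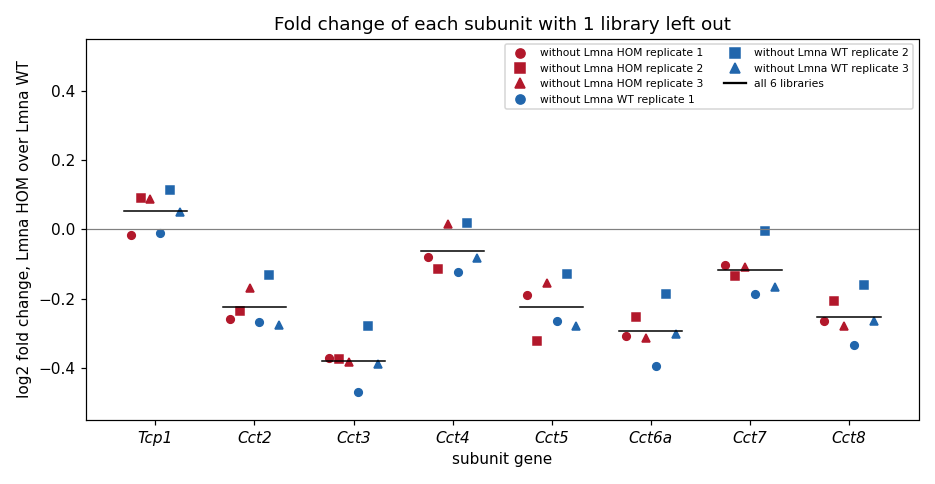
Log2 fold change (Lmna HOM over Lmna WT) of each subunit gene when 1 library is left out, red for an Lmna HOM and blue for an Lmna WT library, with the value from all 6 libraries as a black line. Without Lmna WT replicate 2 (blue square) the values move upward for all 8 genes, to a median of -0.13.

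The size of these differences depended on single libraries, and its largest shift came with Lmna WT replicate 2 left out. That library was the highest Lmna WT library for all 8 members and the highest of all 6 libraries for 7. It stood at 1.13 to 1.25 times the mean of Lmna WT replicates 1 and 3. Without it the median log2 fold change of the members was -0.13 and 6 of 8 were below 0. Without Lmna HOM replicate 3 the median was -0.16, also with 6 of 8 below 0. Leaving out Lmna WT replicate 1 or 3 gave a median of -0.27 in each case. Lmna WT replicate 2 also stood highest for S phase and mitosis genes. These 16 genes summed to 412, 341 and 382 CPM in Lmna HOM and to 372, 814 and 390 CPM in Lmna WT replicates 1, 2 and 3. Of these 16 genes 10 fell and 0 rose with edgeR, where 11.5% of all tested genes were called lower. An unadjusted p under 0.05 was reached by 13 in either direction, where 35.9% of all tested genes reached it. DESeq2 and voom called 12 and 9, also in either direction. Over all tested genes DESeq2 called fewer than edgeR, and voom called more. Among the 13 with an unadjusted p under 0.05, Pcna was higher in all Lmna HOM libraries, with a log2 fold change of 0.45. Pcna alone stood at 289, 218 and 258 CPM in Lmna HOM and at 153, 212 and 195 CPM in Lmna WT replicates 1, 2 and 3. Pcna thus made up most of each Lmna HOM sum. The part of cell division in the subunit values was not tested.

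Summed over the 8 members, RNA for the complex came to 1409, 1383 and 1317 CPM in Lmna HOM and to 1413, 1735 and 1489 CPM in Lmna WT replicates 1, 2 and 3. The highest Lmna HOM and the lowest Lmna WT library were almost equal. The sums averaged 1370 ± 47.0 CPM in Lmna HOM and 1545 ± 168 CPM in Lmna WT libraries (SD, n = 3 each).

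**Figure D3:**
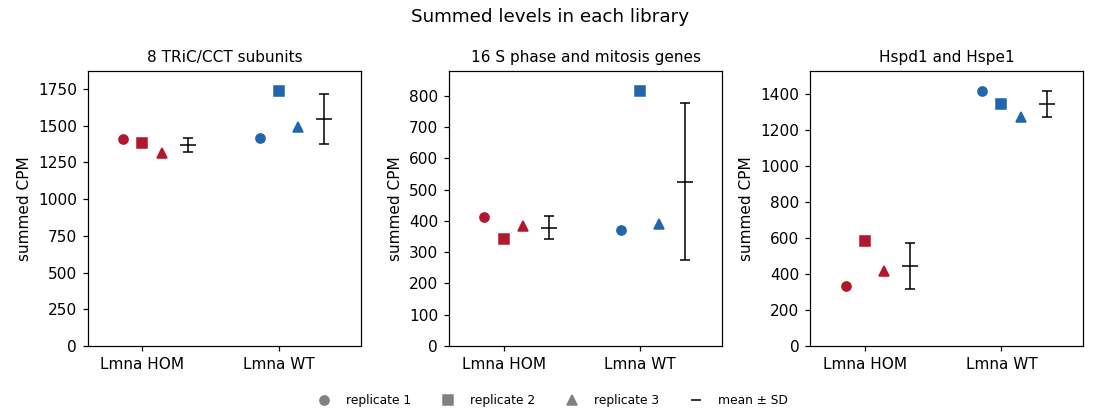
Summed CPM of the 8 subunit genes, of 16 S phase and mitosis genes and of Hspd1 with Hspe1, in Lmna HOM (red, left) and Lmna WT libraries (blue, right), with mean and SD. Lmna WT replicate 2 is highest for subunits (1735 CPM) and for S phase and mitosis genes (814 CPM), and the Hspd1 and Hspe1 sums are lower in all Lmna HOM libraries. Pcna makes up most of each S phase and mitosis sum in Lmna HOM.

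The ring needs its subunits in equal number, so levels were also set beside each other per length, as CPM per kilobase of the reference transcript. On this scale Cct5 was highest, at 107 ± 12.3 in Lmna HOM and 125 ± 13.9 in Lmna WT libraries (SD, n = 3 each). Cct2 followed at 103 ± 6.78 in Lmna HOM and 120 ± 13.03 in Lmna WT. These neighbours overlapped in both genotypes. Tcp1 was next at 94.3 ± 8.17 in Lmna HOM and 91.0 ± 7.45 in Lmna WT, overlapping Cct2 in Lmna HOM but below it in all Lmna WT libraries.

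Below these came Cct4 at 74.3 ± 6.77 CPM per kilobase in Lmna HOM and 77.5 ± 7.52 in Lmna WT. Cct3 was at 61.6 ± 0.63 CPM per kilobase in Lmna HOM and 80.2 ± 10.2 in Lmna WT, so its rank was 6 in Lmna HOM and 4 in Lmna WT. Cct7, Cct6a and Cct8 lay between 57.4 and 62.4 CPM per kilobase in Lmna HOM and between 67.8 and 70.4 in Lmna WT on average. From Tcp1 down, no neighbours in the order stood apart over the Lmna WT libraries, while in Lmna HOM Tcp1 stood above Cct4, Cct4 above Cct7 and Cct3 above Cct8. The highest mean was 1.87 times the lowest in Lmna HOM and 1.85 times in Lmna WT. With the union of all annotated exons as length these ratios were 4.12 in Lmna HOM and 3.77 in Lmna WT, with Cct3 last in Lmna HOM and Cct7 last in Lmna WT, so the order depends on the length chosen.

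**Figure D4:**
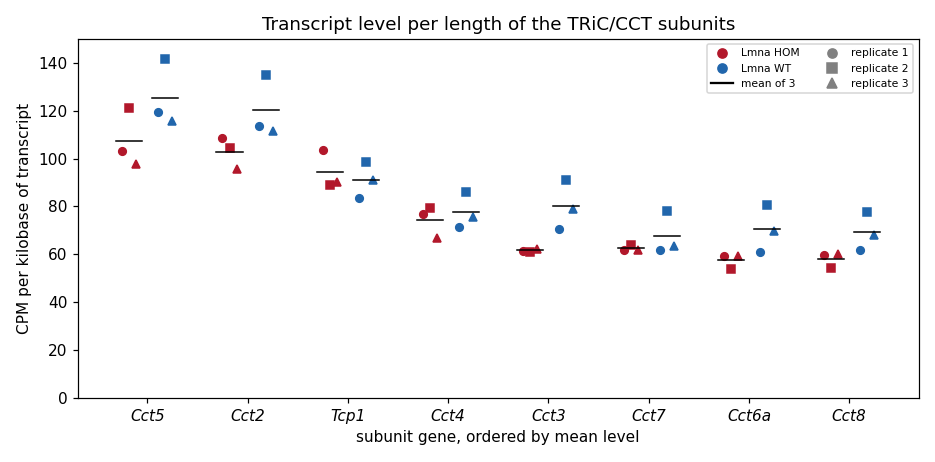
CPM per kilobase of reference transcript for each subunit gene in Lmna HOM (red, left of each pair) and Lmna WT libraries (blue, right), with the mean of 3 as a line. Cct5, Cct2 and Tcp1 lie highest in both genotypes.

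The make-up of the subunit RNA was compared as shares, which sum to a fixed total, so that a lower share of 1 gene raises the others. Cct3 made up 8.63, 8.73 and 9.35% of the summed subunit CPM in Lmna HOM and 9.88, 10.4 and 10.5% in Lmna WT replicates 1, 2 and 3. Tcp1 made up 18, 15.7 and 16.7% in Lmna HOM and 14.5, 13.9 and 14.9% in Lmna WT. For both genes the groups stood apart, with Cct3 lower and Tcp1 higher in Lmna HOM, and for the other 6 they overlapped. The exact two-sided permutation test gave p = 0.1 for each of these 2 shares, with all 8 members compared and no adjustment, and 0.1 is the smallest p that 3 against 3 allows. Per 100 Tcp1 reads there were 47.9, 55.5 and 55.9 Cct3 reads in Lmna HOM and 68.3, 74.6 and 70.3 in Lmna WT replicates 1, 2 and 3, a pair picked after the values were seen.

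Across the 6 libraries the subunits tended to rank alike. The 28 pairs had a median Pearson r of 0.77 on log2 CPM, from -0.02 for Tcp1 with Cct5 to 0.997 for Cct6a with Cct8. Pairs with Tcp1 had a median of 0.31 and pairs without it 0.80. These points share library scaling and genotype and are given as a description.

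Of 9273 other genes averaging 10 CPM or more, those most like the members over the 6 libraries, by the median r with the 8, were Slc25a17, 2610301B20Rik, Tmem185b, Atp5h, Slc25a5, Npm3, Rpl38 and Atg5. Their medians ran from 0.91 to 0.92. Slc25a5, the mitochondrial ADP/ATP carrier, was at 214, 201 and 205 CPM in Lmna HOM and at 240, 352 and 257 CPM in Lmna WT replicates 1, 2 and 3. It was highest in Lmna WT replicate 2, as were 7 of the 8 subunits, and lower in all Lmna HOM libraries, as were 4 of them. Such likeness follows from picking it by these same values, and its lowest r with a member was 0.25. None of the 8 genes most like the members passed edgeR's test, with adjusted p-values from 0.0522 to 0.319. Of all tested genes 21.1% passed, but genes picked for likeness to members that mostly did not pass were unlikely to pass. In 16 alternative fits Atp5h was called in 5 and Slc25a5 in 2.

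The lists of prefoldin, phosducin-like, tubulin cofactor and chaperonin-like genes held no called gene, while HSP70 and HSP90 partners are given further below. None of the 6 prefoldin subunits, 7 prefoldin-like and R2TP genes, 3 measured phosducin-like cofactors, 6 tubulin cofactors or 3 chaperonin-like BBS genes passed edgeR's test, 0 of these had an unadjusted p under 0.05, and DESeq2 and voom called 0. Of all tested genes 21.1% passed edgeR's test and 35.9% had an unadjusted p under 0.05. Median log2 fold changes of these lists were -0.0059, 0.10, -0.13, -0.0033 and 0.25. Pfdn5, the most abundant prefoldin subunit, was at 110 ± 9.23 CPM in Lmna HOM and 105 ± 4.57 CPM in Lmna WT, and Vbp1, another, at 53.1 ± 9.03 CPM in Lmna HOM and 58.1 ± 4.22 CPM in Lmna WT (SD, n = 3 each). Pdcl3, a phosducin-like cofactor, was at 55.5 ± 2.43 CPM in Lmna HOM and 58.0 ± 6.62 CPM in Lmna WT. Tbcd, which assembles tubulin dimers, was at 37.7 ± 0.61 CPM in Lmna HOM and 38.0 ± 0.31 CPM in Lmna WT.

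The remaining named genes of these lists overlapped or differed by no more than a few CPM. Txndc9, a thioredoxin-like cofactor of the complex, was at 42.3 ± 1.80 CPM in Lmna HOM and 46.2 ± 1.28 CPM in Lmna WT, and Tbca, a tubulin cofactor, at 39.9 ± 4.50 CPM in Lmna HOM and 38.1 ± 5.78 CPM in Lmna WT. Uri1 and Pdrg1 of the prefoldin-like complex had log2 fold changes of -0.15 (SE 0.14) and 0.13 (SE 0.15), and Mkks and Bbs10, which help to assemble the BBSome, of -0.21 (SE 0.17) and 0.25 (SE 0.25). Cct6b, the testis paralogue of Cct6a, was too low to test, with 5, 8 and 6 reads in Lmna HOM and 4, 1 and 7 reads in Lmna WT replicates 1, 2 and 3.

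Both mitochondrial chaperonin genes and most of the HSP70 and HSP90 list fell. Hspd1, which encodes the barrel of the mitochondrial chaperonin, was at 204, 357 and 265 CPM in Lmna HOM and at 926, 854 and 853 CPM in Lmna WT replicates 1, 2 and 3. Its log2 fold change was -1.67 (SE 0.19, interval -2.10 to -1.24, edgeR's adjusted p = 0.00084), and that of its lid Hspe1 was -1.44 (SE 0.20, interval -1.88 to -1.003). Every Lmna HOM library lay below every Lmna WT library for both, and no subunit interval reached theirs. Among HSP70 and HSP90 partners 8 of 10 fell and 0 rose with edgeR, 8 had an unadjusted p under 0.05, and DESeq2 and voom called 8 each (median log2 fold change -0.94). Over all tested genes 11.5% were called lower, and 35.9% had an unadjusted p under 0.05. Dnajb1, a heat-inducible HSP70 partner, had a log2 fold change of -2.12 (SE 0.25), Hsp90aa1 of -1.24 (SE 0.18) and Dnaja1 of -0.93 (SE 0.13), while Hsf1, the heat shock factor, was at 24.7 ± 1.36 CPM in Lmna HOM and 22.8 ± 1.31 CPM in Lmna WT.

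Subunit levels were also expressed relative to Hspd1 within each library, as a description, since the fall of Hspd1 in the shared denominator sets the direction of every ratio. Tcp1 stood at 0.609 to 1.24 times Hspd1 in Lmna HOM and at 0.221 to 0.282 times in Lmna WT, and Cct3 at 0.338 to 0.595 times in Lmna HOM and 0.151 to 0.210 times in Lmna WT. Summed, the subunits were at 4.21, 2.36 and 3.14 times the CPM of Hspd1 and Hspe1 in Lmna HOM and at 0.998, 1.29 and 1.17 times in Lmna WT replicates 1, 2 and 3.

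**Figure D5:**
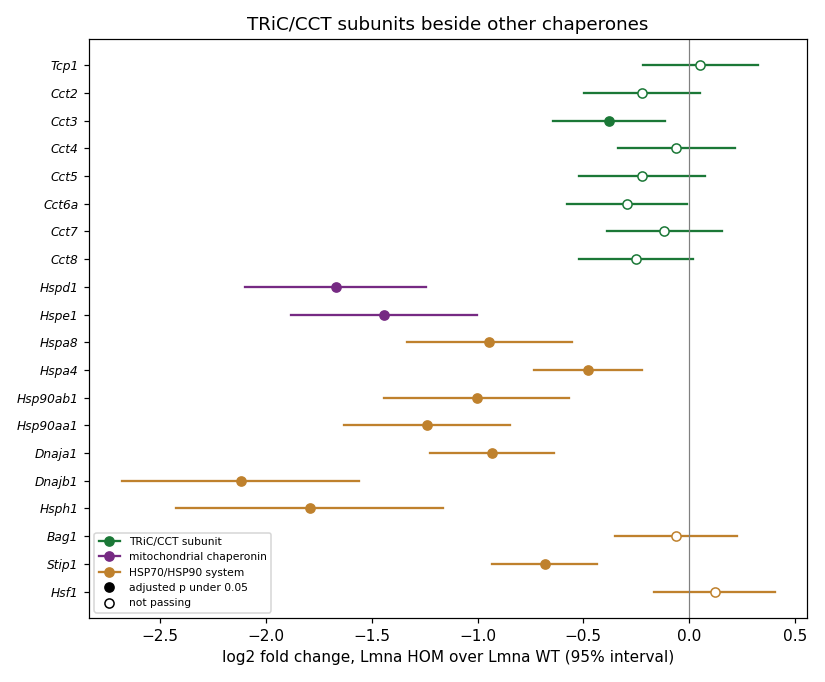
Log2 fold change (Lmna HOM over Lmna WT) with its 95% interval for the 8 subunits (green), the mitochondrial chaperonin (purple) and the HSP70 and HSP90 partners (brown), filled where the adjusted p is under 0.05. The subunits lie between -0.38 and 0.05, and Hspd1 and Hspe1 at -1.67 and -1.44.

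Among the clients of the complex, 4 of 11 actins and actin-related genes fell and 0 rose with edgeR (median log2 fold change -0.11), the same 4 that had an unadjusted p under 0.05, and DESeq2 and voom called 4 each. For comparison, 11.5% of all tested genes were called lower, and 35.9% had an unadjusted p under 0.05. Actc1, the cardiac actin made by fetal and regenerating muscle, was at 0.420, 5.83 and 0.262 CPM in Lmna HOM and at 30.9, 34.0 and 11.8 CPM in Lmna WT replicates 1, 2 and 3, on 3, 55 and 2 reads in Lmna HOM. It was lower in every Lmna HOM library, with a log2 fold change of -3.43 (SE 0.71, edgeR's adjusted p = 0.0092) that was -6.17 without Lmna HOM replicate 2. Actg2, the enteric smooth muscle actin, fell by 0.81 (SE 0.15) and Actg1, the cytoplasmic gamma actin, by 0.61 (SE 0.14) on the log2 scale. The adjusted p of Actg1 was 0.0639 without Lmna HOM replicate 1 and 0.0501 without Lmna HOM replicate 3. Acta1, 1 of the 4 actins that fell, is also a mature fibre marker. Of the 8 mature fibre markers 3 fell, Myh2, Atp2a1 and Acta1 itself. Ckm, Tnnt3 and Mylpf had log2 fold changes of 0.17, 0.62 and 0.20 and were not called. The marker sums were 39.6 to 67.0 CPM in Lmna HOM and 66.3 to 109 CPM in Lmna WT, and their part in the actin values was not tested. Actb, a cytoplasmic actin, was at 3087 ± 167 CPM in Lmna HOM and 3340 ± 489 CPM in Lmna WT (log2 fold change -0.11, SE 0.16).

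Of 14 measured tubulins 2 fell and 1 rose with edgeR (median log2 fold change -0.35), 6 had an unadjusted p under 0.05, and DESeq2 and voom called 4 and 3. The edgeR count is near the share of all tested genes called in either direction, 21.1%, and 35.9% of all tested genes had an unadjusted p under 0.05. Tubb2b, a beta tubulin, was at 10.2, 23.1 and 14.5 CPM in Lmna HOM and at 56.9, 69.3 and 59.04 CPM in Lmna WT replicates 1, 2 and 3. It was lower in every Lmna HOM library, with a log2 fold change of -1.94 (SE 0.24, edgeR's adjusted p = 0.0011). Tubb2a, its close copy, fell by 0.37 (SE 0.11) and Tuba4a rose by 0.68 (SE 0.18) on the log2 scale, and both calls were lost without Lmna HOM replicate 1, Lmna HOM replicate 3, Lmna WT replicate 1 or Lmna WT replicate 3, and that of Tubb2a also without Lmna WT replicate 2. With those omissions the adjusted p ran from 0.0614 to 0.1405 for Tubb2a and from 0.0708 to 0.109 for Tuba4a. Both calls were also lost with Y-linked reads as a covariate (adjusted p of 0.122 for Tubb2a and 0.0571 for Tuba4a), and that of Tubb2a with library totals only (0.0577), the replicate block (0.0793) and joint omission of both replicates 2 (0.0522). The levels of Tubb2a and Tubb2b are uncertain where reads fit both. Of 13 WD40 and other clients 0 passed with edgeR, 5 had an unadjusted p under 0.05 and DESeq2 and voom called 0 and 3. That unadjusted count is near the 35.9% of all tested genes. Stat3, a transcription factor, was at 426 ± 42.03 CPM in Lmna HOM and 325 ± 55.9 CPM in Lmna WT, and Gnb1, a G protein beta subunit, at 161 ± 6.75 CPM in Lmna HOM and 171 ± 8.62 CPM in Lmna WT.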

How the data were processed

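For each library the authors deposited a table of unnormalized counts by Ensembl gene. Per the submitters' processing notes, Trimmomatic 0.32, STAR 2.5.2b, HTSeq 0.6.1 and mm10 were used. What each did, how strand was set and which annotation was counted is information not given in the sources used here. Summary lines held 45.0 to 49.8% of reads and were left out, and reads with several alignments made up 19.7 to 24.0%. GENCODE M21 on GRCm38 named 38861 of 39059 genes.

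Counts were filtered with filterByExpr (minimum count 10, minimum total 15), scaled by TMM and compared with the quasi-likelihood test of edgeR 4.0.16 in R 4.3.3, with Benjamini-Hochberg adjustment over 14099 genes at a threshold of 0.05, and the code was tested on simulated counts. The SE is the log2 fold change over the square root of F, and the 95% intervals use the fit's degrees of freedom. Alternatives used DESeq2 1.42.0 and voom in limma 3.58.1. Libraries of a genotype differed beyond sampling noise (chi-square 8.35 to 22.5 per gene). The members, lists, tests and alternatives, Y-linked reads and the joint omission included, were chosen with earlier results of these data known. Named genes are the members, Lmna, up to 3 called (otherwise the 2 most abundant) genes per partner or client list, and the 8 most like the members; Hsf1, Actb, Cct6b, the marker genes and the called neighbours of Lmna were added after their values were seen. Level per length uses each member's longest basic protein-coding transcript. Cct6a has none in the annotation used, so its longest basic transcript without a retained intron, a processed transcript, was taken.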

Additional observations from a re-analysis of the deposited data

How the results depend on the processing

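Over 16 alternatives, 0 members were called higher in any, and 1 (Cct3) was called lower in 5: DESeq2 size factors in edgeR, the DESeq2 test, every gene with a read kept, at least 1 CPM in 3 libraries required, and omission of mitochondrial, ribosomal protein, histone and haemoglobin genes. It was 0 in the other 11: library totals only, voom with sample weights, the replicate block, Y-linked reads as a covariate, joint omission of Lmna HOM replicate 2 and Lmna WT replicate 2, and omission of each library. The number of all genes called was 1932 with Y-linked reads as a covariate and 1576 to 4002 with 1 library left out. Same-numbered libraries did not deviate together (correlations -0.063, 0.017 and -0.11). This does not settle whether the replicate numbers mark a pairing, and the main fit used none. The replicate block called 2437 genes and 0 members. With 1 library left out, log2 fold changes that changed sign ranged from -0.016 to 0.11 for Tcp1, -0.12 to 0.019 for Cct4, -0.0093 to 0.11 for Pfdn5, -0.11 to 0.037 for Pdcl3, -0.055 to 0.16 for Tbca and -0.026 to 0.0053 for Tbcd, which was 0.0094 with library totals only. The causes were not tested. With standard errors of 0.12 to 0.13 on 869 to 2119 reads per member and library, the spread between libraries limits what can be seen: differences of the size found for most members were not detectable.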

Other observations

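Cct3, the only member called, lies near Lmna, so the genes around Lmna were looked at. Within 500000 bases of Lmna, 27 other genes were tested, of which 3 were higher and 2 lower in Lmna HOM with edgeR, or 18.5%, against 21.1% of all tested genes. Smg5 (log2 fold change 0.33, SE 0.10), Tmem79 (0.99, SE 0.28) and Khdc4 (0.40, SE 0.11) were the higher ones. Mex3a (-0.94, SE 0.24) and Iqgap3 (-3.01, SE 0.68) were the lower ones. The median log2 fold change of the 27 was 0.03.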
